A study of Mus musculus with 12 samples.

Results

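MiR-15a, miR-15b, miR-16, miR-195 and miR-497 are the guide strands of 1 microRNA (miRNA) family. They were taken by their names in the scanner files (mmu-miR-15a, mmu-miR-15b, mmu-miR-16, mmu-miR-195 and mmu-miR-497) and are 5 of the 611 mouse miRNAs on the array. The cells were 3T3-L1, an established line of mouse fibroblasts that culture conditions can turn into fat cells. Single-colour arrays of 12 samples were deposited, in 4 groups of 3. The groups were untreated preadipocytes, cells induced with MDI, preadipocytes given lithium chloride at 25 mM, and lithium-treated cells that were then induced with MDI. MDI is a differentiation medium of 3-isobutyl-1-methylxanthine, dexamethasone and insulin. It was given for 3 days, followed by insulin for 2 days and plain medium for 2 days, up to day 7. The labels give this schedule for the MDI cells, and no time for the others, so time in culture may differ between groups. All cells shared 1 line, growth medium and serum. The submitters set up MDI as a model of suppressed WNT signalling and lithium as a model of its activation.

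A miRNA pairs with messenger RNAs mainly through its seed, bases 2 to 8 from the 5′ end, and represses them. The miR-15 family is best known for holding back cell division, with cyclin D1, cyclin E1 and the survival protein BCL2 among its established targets, and 3T3-L1 cells re-enter the cell cycle for a short time early in their differentiation. Its genes lie in small clusters, each copied as 1 precursor transcript: miR-15a beside miR-16-1, miR-15b beside miR-16-2, and miR-497 beside miR-195.

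The mature sequences are printed because the shared seed, in capitals, defines the family, and because the bases after it are what tells the members apart on an array. They are RefSeq's, on build GRCm38.p6, and all 5 members matched.
miR-15a: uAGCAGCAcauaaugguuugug
miR-15b: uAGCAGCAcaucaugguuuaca
miR-16: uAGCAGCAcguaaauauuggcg
miR-195: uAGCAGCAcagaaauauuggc
miR-497: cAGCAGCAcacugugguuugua
The seed AGCAGCA stood in 10 of the 1679 mature mouse miRNAs of that table, or 0.596%. Of those 10, 6 were on the array: the members and miR-322. Aligned from base 1, miR-15a and miR-15b were identical at 18 of 22 positions and miR-16 and miR-195 at 19 of 21. MiR-16 and miR-497 were identical at 11 of 22. Whether a probe also bound its closest relative was not tested.

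MiR-15a lies at chr14:61632075-61632096 on the minus strand, within Dleu2, with 117 bases between it and the nearer copy of miR-16 at chr14:61631936-61631957. MiR-15b lies at chr3:69009775-69009796 on the plus strand, within Smc4, a condensin subunit gene. The other copy of miR-16 follows after 121 bases, at chr3:69009918-69009939. MiR-497 at chr11:70234730-70234751 and miR-195 at chr11:70235062-70235082 are on the plus strand with 310 bases between them. The hairpins of the miR-16 genes are shown since both give the same mature strand, in capitals, so that its array signal cannot be assigned to either cluster.
Mir16-1: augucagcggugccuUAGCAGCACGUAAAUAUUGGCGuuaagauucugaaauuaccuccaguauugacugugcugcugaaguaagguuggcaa
Mir16-2: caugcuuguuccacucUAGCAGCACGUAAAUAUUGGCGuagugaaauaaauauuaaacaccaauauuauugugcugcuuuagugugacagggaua

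Each member had 2 probes of 10 spots, and all 5 were detected on all 12 arrays. Values below are log2 of the background-subtracted scanner signal with each array scaled to its own 75th percentile of the 181 probes detected on every array. They compare samples for 1 miRNA; a level of 1 miRNA is not comparable with that of another. Between 17.9% and 24.2% of mouse spots per array were well above background. Preadipocytes 1 to 3 and MDI 1 shared slide 1, and the other arrays slide 2, so no slide held preadipocytes beside a lithium group. Over all tested miRNAs, 6 of 12 arrays had a higher mean correlation with some other group. Of these, preadipocytes 3, lithium 1 and lithium plus MDI 3 had been picked out in an earlier pass over these data, with mean r of 0.939, 0.942 and 0.924 to their own group and 0.957, 0.960 and 0.965 to the nearest other. The rest of the 6 were MDI 1, lithium plus MDI 1 and lithium plus MDI 2. Their mean r was 0.954, 0.959 and 0.944 to their own group and 0.956, 0.974 and 0.966 to the nearest other. Of 24 marker miRNAs of epithelium, muscle, blood, nerve, liver and endothelium, miR-205 and miR-128 were the 2 detected on any array. The array measures no messenger RNA, so fat cell markers were not examined. Whether the 3 samples of a group were separate cultures is not stated in the labels, so p-values measure only how these samples scatter, and that scatter may be technical. In such bulk samples, fewer cells that carry a miRNA and less of it per cell cannot be told apart.

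MiR-15b was the member whose group means lay farthest apart. Its log2 signal was 0.78, 0.56 and 0.38 in preadipocytes 1, 2 and 3, and 1.19, 1.00 and 1.15 after MDI. With lithium it was 0.94, 0.19 and -0.01, and with lithium plus MDI 1.57, 1.62 and 0.45. Every MDI array lay above every preadipocyte array and every lithium array, while lithium 1 lay above the other lithium arrays and lithium plus MDI 3 below the other arrays of its group. The means, from low to high, were 0.37 ± 0.50 (SD, n = 3) with lithium, 0.57 ± 0.20 in preadipocytes, 1.12 ± 0.10 after MDI and 1.21 ± 0.66 with lithium plus MDI. No neighbours in that order differed beyond their spread by limma.

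Within lithium-treated cells, miR-15b was 0.84 higher in log2 with MDI (SE 0.34), or 1.79-fold with a 95% interval of 1.07 to 2.98. That gave an unadjusted p of 0.0286 and a limma adjusted p of 0.135. By p, miR-15b was at rank 33 of the 157 miRNAs tested, whose median difference was 0.39. Of them, 30.6% had an unadjusted p under 0.05 by limma. Against lithium alone, MDI cells were 0.74 higher (SE 0.34; limma adjusted p = 0.218). Both differences kept their sign under all 29 alternative settings, at 0.64 to 1.51 and 0.53 to 1.02. Some of these settings could not change them, such as leaving out an array of a group outside the comparison. Against preadipocytes, the difference was 0.54 for MDI (SE 0.34; limma adjusted p = 0.387), 0.64 for lithium plus MDI (0.34; 0.374) and -0.20 for lithium (0.34; 0.724). The first 2 turned negative, to -0.27 and -0.41, when arrays were scaled over all mouse probes, and to -0.36 and -0.08 with no scaling. All lithium and lithium plus MDI arrays were on slide 2, so their difference within that slide was 0.84 by construction (limma adjusted p = 0.152). Within slide 1, MDI 1 was 0.62 above preadipocytes. Slide 1 holds that single MDI array, so its value is given with no test.

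Single arrays decided whether miR-15b passed. Without lithium 1, the difference of lithium plus MDI from lithium was 1.12 (limma adjusted p = 0.0422), and without lithium plus MDI 3 it was 1.22 (0.0115), while 20.4% and 24.2% of all tested miRNAs passed. Without lithium plus MDI 3, that group's difference from preadipocytes was 1.02 (limma adjusted p = 0.0289), with 22.9% of all passing. With preadipocytes 3, lithium 1 and lithium plus MDI 3 all left out, miR-15b passed in 5 comparisons. Lithium plus MDI was then 1.51 above lithium (limma adjusted p = 0.000458) and 0.93 above preadipocytes (0.00807). MDI was 1.02 above lithium (limma adjusted p = 0.00203), lithium was -0.58 against preadipocytes (0.0351) and the interaction was 1.06 (0.0112). Leaving out arrays chosen for low likeness to their group narrows the spread within groups by construction. In the order of these 5 comparisons, 56.1%, 24.2%, 42.0%, 52.9% and 43.9% of all tested miRNAs then passed, against 0.00%, 1.27%, 0.00%, 6.37% and 0.00% on all arrays.

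**Figure D1:**
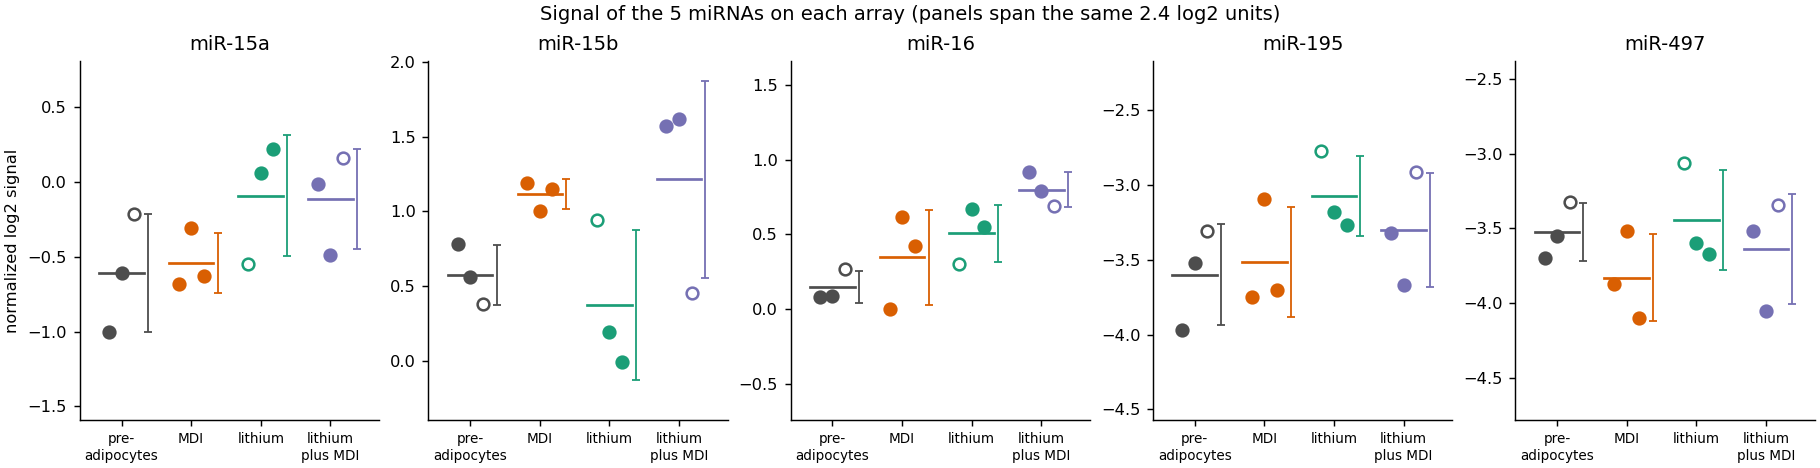
Normalized log2 signal (y axis) of each member on every array, by group (x axis). Points are arrays, horizontal lines group means and bars 1 SD (n = 3); open points are preadipocytes 3, lithium 1 and lithium plus MDI 3. The miR-15b points after MDI sit between 1.00 and 1.19, above all 3 preadipocyte and all 3 lithium points.

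**Figure D2:**
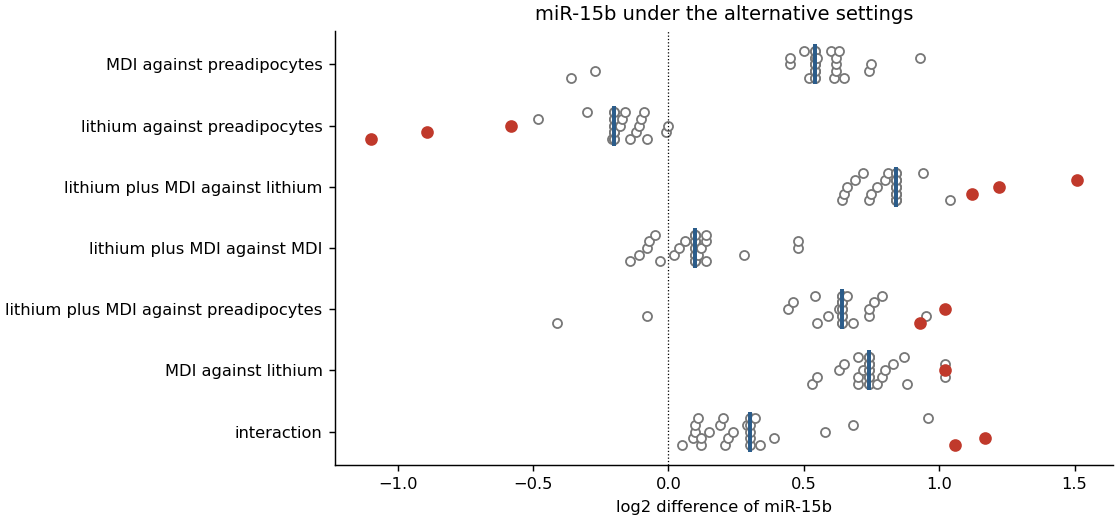
Log2 difference of miR-15b (x axis) in the 6 comparisons of groups and the interaction (y axis). Blue marks are the values reported, open circles alternative settings with a limma adjusted p of 0.05 or more, and red circles those under 0.05. Lithium plus MDI against lithium spans 0.64 to 1.51, all above 0, whereas MDI against preadipocytes reaches down to -0.36.

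MiR-15a, the nearest relative of miR-15b in sequence, did not follow it across the arrays. Its log2 signal was -1.0, -0.61 and -0.21 in preadipocytes and -0.68, -0.31 and -0.63 after MDI. With lithium it was -0.55, 0.06 and 0.22, and with lithium plus MDI -0.01, -0.49 and 0.16. Lithium 2 and 3 and lithium plus MDI 1 and 3 were the highest 4 arrays, and all groups overlapped. From low to high, the means were preadipocytes at -0.61 ± 0.39 (SD, n = 3), MDI at -0.54 ± 0.20, lithium plus MDI at -0.12 ± 0.34 and lithium at -0.09 ± 0.41, and no neighbours differed beyond that spread.

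The lithium difference of miR-15a from preadipocytes was 0.52 (SE 0.30; limma adjusted p = 0.32), and that of lithium plus MDI was 0.49 (0.30; 0.431). Scaling over all mouse probes turned these to -0.38 and -0.56, and no scaling to -0.18 and -0.23. MDI cells were at -0.45 against lithium cells (SE 0.30; limma adjusted p = 0.344), a sign kept under all 29 settings, from -0.68 to -0.29. Some of these settings could not change that difference. Without the 3 arrays named above, miR-15a passed for lithium against preadipocytes at 0.94 (limma adjusted p = 0.0104) and for MDI against lithium at -0.68 (0.0352), where 52.9% and 42.0% of all tested miRNAs passed too.

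Over the 12 arrays the log2 signals of miR-15a and miR-15b correlated at r = -0.444, and at -0.783 once group means were subtracted. MiR-15a correlated at 0.691 with miR-16, and miR-15b at 0.196. These are descriptions over arrays that share a scaling and slides. The non-members most like miR-15a were miR-30b, miR-30c and miR-218 at r = 0.902, 0.848 and 0.787. Those most like miR-15b were miR-25, miR-674* and miR-350 at 0.938, 0.937 and 0.907. The median r of miR-15b with all tested miRNAs was itself 0.416, beside -0.128 for miR-15a. MiR-25 belongs to the miR-106b cluster, whose members promote the passage from G1 to S phase.

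**Figure D3:**
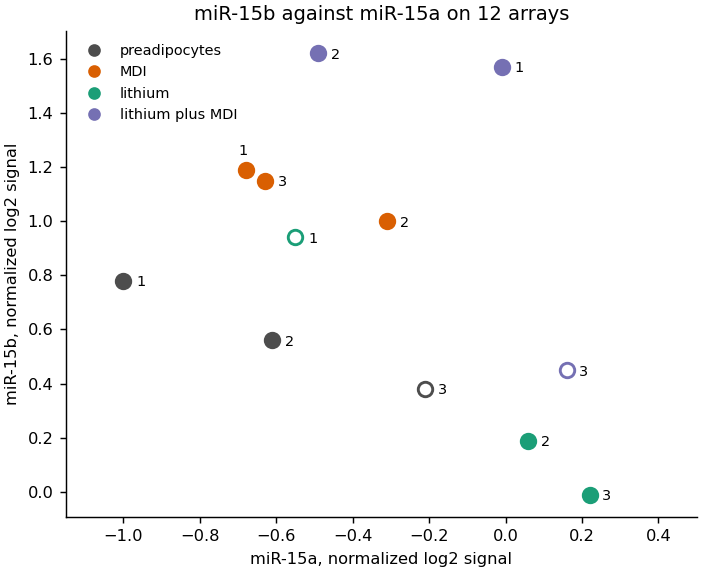
Normalized log2 signal of miR-15b (y axis) against miR-15a (x axis), 1 point per array with its replicate number; open points are preadipocytes 3, lithium 1 and lithium plus MDI 3. Within each group the array with the highest miR-15a had the lowest miR-15b (r = -0.783 after group means were subtracted).

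MiR-16, made from both clusters, had its highest values with lithium plus MDI. Its log2 signal was 0.08, 0.09 and 0.27 in preadipocytes, and 0.00, 0.62 and 0.42 after MDI. With lithium it was 0.30, 0.67 and 0.55, and with lithium plus MDI 0.92, 0.79 and 0.69. The 3 lithium plus MDI arrays lay above the other 9, and the 3 lithium arrays above the 3 preadipocyte arrays. From low to high, the means were 0.15 ± 0.11 (SD, n = 3) in preadipocytes, 0.35 ± 0.32 after MDI, 0.51 ± 0.19 with lithium and 0.80 ± 0.12 with lithium plus MDI. The last step separated the arrays but did not pass.

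Lithium plus MDI stood 0.65 above preadipocytes for miR-16 (SE 0.24), or 1.57-fold with a 95% interval of 1.1 to 2.26, at an unadjusted p of 0.0179 and a limma adjusted p of 0.216. This placed miR-16 at rank 13 of the 157 miRNAs tested. The difference was -0.40 with scaling over all mouse probes, -0.07 with no scaling, 0.13 with slide as a fixed block (limma adjusted p = 0.908) and 0.58 with slide as a random block (0.414). Without the 3 arrays it was 0.77 (limma adjusted p = 0.0390), where 24.2% of all tested miRNAs passed. Lithium plus MDI stood 0.45 above MDI (SE 0.24; limma adjusted p = 0.781) and 0.30 above lithium (0.24; 0.397). These 2 differences kept their sign under every setting, the former at 0.21 to 0.63 and the latter at 0.08 to 0.38. Within slide 2 they were 0.28 and 0.30, the latter by construction since both its groups lay wholly on that slide. Some of the settings could not change them. Lithium alone was 0.36 above preadipocytes (SE 0.24; limma adjusted p = 0.363). This was -0.16 with slide as a fixed block and 0.29 as a random block, whereas it was -0.54 with scaling over all mouse probes and -0.33 with no scaling. In a fixed slide block, the slide effect comes only from MDI 1 against MDI 2 and 3. MiR-218, miR-30e* and miR-145 were the non-members most like miR-16, at r = 0.885, 0.872 and 0.819.

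MiR-195 and miR-497, both made from the chromosome 11 cluster, were dim, at 19.7 to 78.6 and 18.1 to 77.8 scanner units over the 12 arrays. The log2 signal of miR-195 was -3.97, -3.52 and -3.31 in preadipocytes and -3.75, -3.09 and -3.70 after MDI. With lithium it was -2.77, -3.18 and -3.27, and with lithium plus MDI -3.32, -3.67 and -2.91. The 3 lithium arrays lay above the 3 preadipocyte arrays, and the other groups overlapped. Its means, from low to high, were -3.60 ± 0.34 (SD, n = 3) in preadipocytes, -3.51 ± 0.36 after MDI, -3.30 ± 0.38 with lithium plus MDI and -3.07 ± 0.27 with lithium.

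For miR-195, lithium was 0.53 above preadipocytes (SE 0.30; limma adjusted p = 0.307). The value was 0.17 with slide as a fixed block, 0.48 as a random block, -0.37 with scaling over all mouse probes, -0.16 with no scaling and -0.30 with normexp background correction. The fixed block again rests on MDI 1 against MDI 2 and 3. MDI was at -0.44 against lithium (SE 0.30; limma adjusted p = 0.344).

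The log2 signal of miR-497 was -3.70, -3.55 and -3.32 in preadipocytes and -3.87, -3.52 and -4.10 after MDI. With lithium it was -3.06, -3.60 and -3.67, and with lithium plus MDI -3.52, -4.05 and -3.34. All groups overlapped. The means, from low to high, were -3.83 ± 0.29 (SD, n = 3) after MDI, -3.63 ± 0.37 with lithium plus MDI, -3.52 ± 0.19 in preadipocytes and -3.44 ± 0.33 with lithium. No difference between neighbours in these orders passed by limma, for miR-195 or miR-497. The MDI difference of miR-497 from preadipocytes was -0.30 (SE 0.28; limma adjusted p = 0.491). It passed at -1.12 with scaling over all mouse probes (limma adjusted p = 0.0269) and at -1.20 with no scaling (0.0240), where the median of all tested miRNAs was -0.64 and -0.70 in place of 0.10 and 30.6% and 39.5% of them passed.

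Differences between a pair of members on the same array do not change when the array is divided by 1 factor, though quantile normalization can move them. MiR-195 minus miR-497 was -0.27, 0.03 and 0.01 in preadipocytes, against 0.12, 0.43 and 0.40 after MDI. It was 0.30, 0.41 and 0.40 with lithium and 0.20, 0.38 and 0.42 with lithium plus MDI. All 9 treated arrays lay above all 3 preadipocyte arrays, and MDI 1, the treated array that shared the preadipocytes' slide, was the lowest of the 9.

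Against preadipocytes the difference in this pair was 0.39 for MDI, 0.45 for lithium and 0.41 for lithium plus MDI. Each had an exact two-sided permutation p of 0.1, the smallest that 3 against 3 allows, and 0.533 after adjustment over 24 such tests. These 3 share the preadipocyte arrays. They were the 3 of 24 without overlap between groups. No such share was taken over pairs of other tested miRNAs, so this count has no background beside it. With normexp, which adds an offset of 50 to signals of this size, they were 0.10, 0.13 and 0.11. With the mean over both probes of each miRNA they were 0.20, 0.32 and 0.29, and with quantile normalization 0.43, 0.48 and 0.43. The groups did not overlap under these settings either. The dimmer probe lay at the floor on 6 of 12 arrays for miR-195 and on 10 for miR-497. The mean over both probes is therefore hardly a second reading of the pair. From the dimmer probes alone, MDI, lithium and lithium plus MDI differed from preadipocytes by 0.03, 0.27 and 0.17 for miR-195. For miR-497 these were 0.03, 0.08 and 0.00. The pair correlated over the 12 arrays at r = 0.787, and at 0.915 with group means subtracted.

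The other within-array pairs overlapped between all groups. MiR-15b minus miR-15a, a pair chosen after its values were seen, was 1.78, 1.16 and 0.59 in preadipocytes and 1.87, 1.31 and 1.79 after MDI. It was 1.49, 0.14 and -0.23 with lithium and 1.59, 2.11 and 0.29 with lithium plus MDI. MDI and lithium differed by 1.19 (exact permutation p = 0.2; adjusted 0.533). MiR-15b minus miR-16, which share the Smc4 cluster, differed by 0.90 between the same groups (exact permutation p = 0.2), and miR-15a minus miR-16, which share the Dleu2 cluster, by -0.29 (exact permutation p = 0.2).

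**Figure D4:**
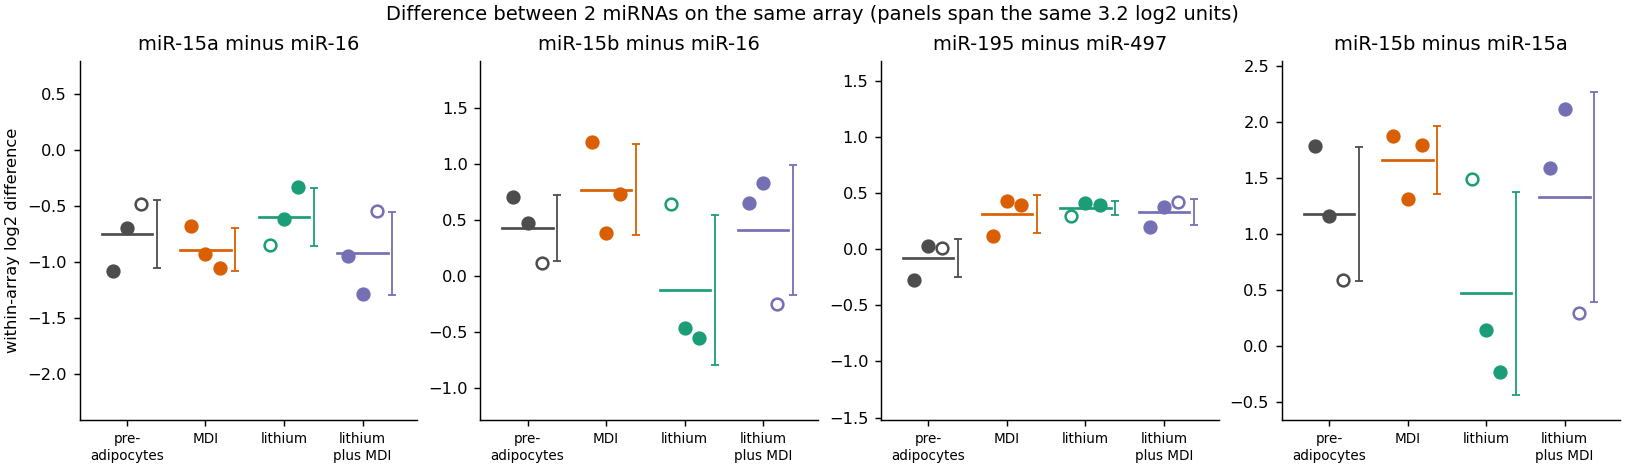
Log2 difference between 2 members on the same array (y axis) by group (x axis). Points are arrays, lines group means and bars 1 SD (n = 3); open points are the 3 arrays named in the text. In the panel of miR-195 minus miR-497, the 3 preadipocyte points reach 0.03 and the other 9 begin at 0.12.

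Both probes of each member were compared as a check within the array. Over the 12 arrays they correlated at 0.998 for miR-15a, 0.987 for miR-15b and 0.992 for miR-16. For miR-195 the dimmer probe was detected on 5 arrays (r = 0.770), and for miR-497 on 4 (r = 0.586). Of 35 differences between groups, 31 had the same sign from both probes, with a median gap of 0.08 and a largest gap of 0.39 in log2. The other 4 were all of miR-497, among them MDI against preadipocytes at -0.30 from the brighter and 0.03 from the dimmer probe. For miR-15b, the dimmer probe gave 1.04 for lithium plus MDI against lithium, beside 0.84 from the brighter.

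No member passed a limma adjusted p of 0.05 in any of the 6 comparisons of groups or in the interaction. Between MDI and preadipocytes, 3.18% of the 157 tested miRNAs passed, 17.8% had an unadjusted p under 0.05 and 26.8% had groups that did not overlap. Among the 5 members the unadjusted count was 0, and 1, miR-15b, did not overlap. Of the members' differences 4 of 5 were above 0, as were 56.7% of all, with a median of 0.09 beside 0.10.

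Between lithium and preadipocytes, 6.37% of all passed, 22.3% had an unadjusted p under 0.05 and 29.9% did not overlap. Of the members 0 met the second criterion, and 2, miR-16 and miR-195, the third. Their median was 0.36 beside -0.07, with 4 of 5 above 0 against 45.2% of all. Between lithium plus MDI and preadipocytes, 1.27% of all passed, 17.2% had an unadjusted p under 0.05 and 17.8% did not overlap. MiR-16 was the 1 member to meet either of the last criteria. The medians were 0.49 and 0.30, with 4 of 5 members and 67.5% of all above 0. Scaling over all mouse probes moved the median of all tested miRNAs to -0.90 for lithium and -0.65 for lithium plus MDI, a shift that the members share.

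In the comparisons without preadipocytes limma called 0.00% of all tested miRNAs. Between lithium plus MDI and lithium, 30.6% of all had an unadjusted p under 0.05 and 33.8% did not overlap. Among the members miR-15b met the former and miR-16 the latter. Their median was -0.02 beside 0.39, with 2 of 5 above 0 against 71.3% of all. Between lithium plus MDI and MDI, 3.82% of all had an unadjusted p under 0.05 and 12.1% did not overlap. Of the members 0 and 1 did, the 1 being miR-16, and all 5 differences were above 0, as were 72.6% of all. Between MDI and lithium, 21.0% of all had an unadjusted p under 0.05 and 30.6% did not overlap. MiR-15b met both, and the median was -0.38 beside 0.21, with 1 of 5 members and 63.7% of all above 0.

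The interaction asks whether MDI acted differently once lithium was present: the MDI difference among lithium-treated cells minus the one among untreated cells. It passed for 0.00% of miRNAs, with 22.3% at an unadjusted p under 0.05 and 0 of the 5 members among them. Of the members' values 3 of 5 were above 0, as were 65.6% of all. It was 0.30 for miR-15b with a 95% interval of -0.75 to 1.34. It was -0.09 for miR-15a (-1.01 to 0.83) and 0.09 for miR-16 (-0.64 to 0.83). For miR-195 it was -0.32 (-1.22 to 0.59) and for miR-497 0.11 (-0.75 to 0.97), with limma adjusted p from 0.75 to 0.903 over the 5. Each interval holds 0 and also changes as large as those between groups.

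**Figure D5:**
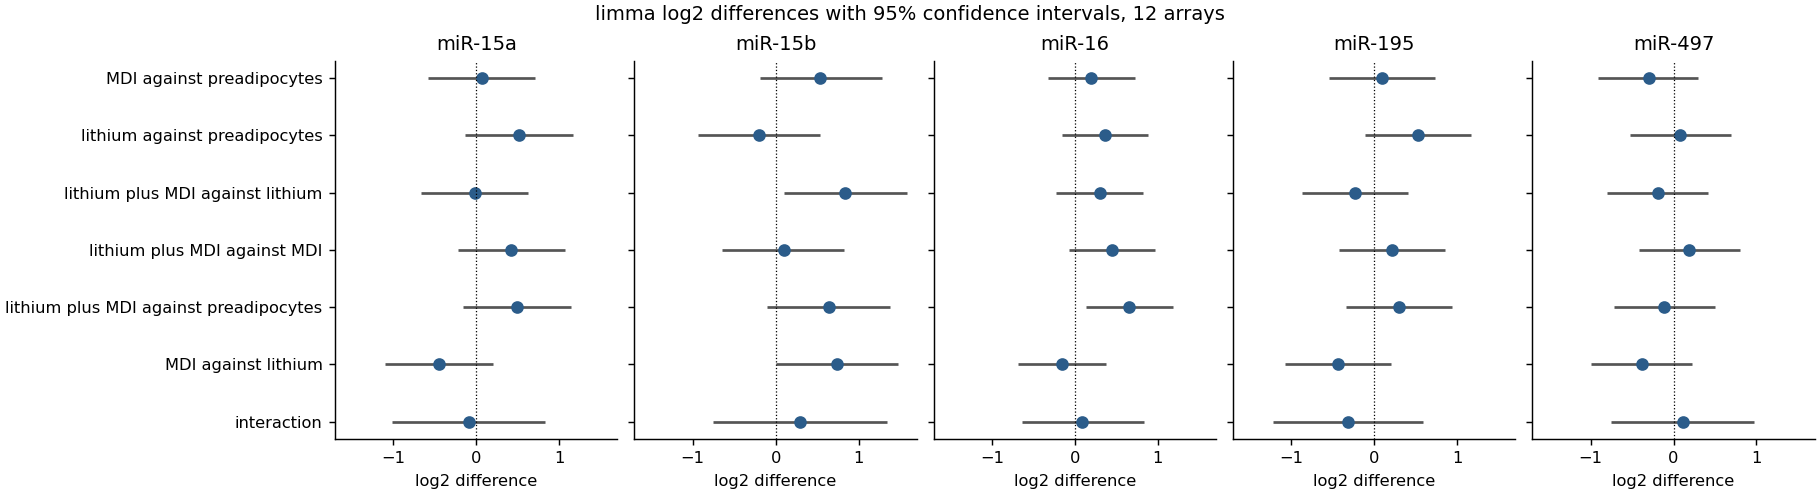
Log2 difference (x axis) of each member in the 6 comparisons of groups and the interaction (y axis); points are limma estimates over 12 arrays and bars 95% confidence intervals. The intervals that leave out 0 are those of miR-15b for lithium plus MDI against lithium (0.10 to 1.58) and MDI against lithium (0.01 to 1.48), and of miR-16 for lithium plus MDI against preadipocytes (0.13 to 1.18).

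The seed relatives, a list of 4 that were all tested, were miR-322, miR-503, miR-103 and miR-107. Their RefSeq sequences are shown because the seeds, in capitals, are the family's own, 1 base different, or shifted by 1 base.
miR-322: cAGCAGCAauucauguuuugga
miR-503: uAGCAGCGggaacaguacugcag
miR-103: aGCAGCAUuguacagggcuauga
miR-107: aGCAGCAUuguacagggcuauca
None of the 4 passed in any comparison by limma, and 2 of them, miR-103 and miR-107, had an unadjusted p under 0.05, both for MDI against lithium. MiR-503 was tested only because all 3 lithium arrays detected it; it was detected on 1 preadipocyte, 2 MDI and 1 lithium plus MDI array, so its differences from lithium support nothing.

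MiR-322, which has the family's seed and is made with miR-503 from a cluster on the X chromosome, spread widely among preadipocytes. Its log2 signal was -1.28, -0.94 and 2.05 there, and -1.05, 1.02 and 0.45 after MDI. With lithium it was 1.03, 1.26 and 1.47, and with lithium plus MDI -0.09, -0.38 and 0.56. Preadipocytes 3 had the highest value of all 12 arrays and preadipocytes 1 the lowest. Lithium plus MDI differed from lithium by -1.22 (SE 0.72; limma adjusted p = 0.253), with no overlap between them. MiR-322 and miR-503 correlated at r = 0.951, with several miR-503 values at the floor. With the miR-322 passenger strand they were the non-members most like miR-195, at 0.687 for miR-322 and 0.699 for each of the others. Those most like miR-497 were miR-26a, miR-30d and miR-455, at 0.774, 0.635 and 0.596.

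MiR-103 and miR-107, made from introns of the pantothenate kinase genes and known as regulators of insulin sensitivity in fat, differed from lithium after MDI by -1.22 and -1.21 (SE 0.49 and 0.42; limma adjusted p = 0.201 and 0.130). The miR-103 values were 0.12, -0.41 and -0.50 after MDI and -0.58, 1.92 and 1.53 with lithium. Lithium 1 lay below all MDI arrays and the other lithium arrays far above them. MiR-15b correlated with miR-103 at r = -0.711 and with miR-107 at -0.692 over the 12 arrays.

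Of 7 passenger strands of the family and its relatives, 5 were on the array and 1, that of miR-322, was detected; those of miR-15a, miR-15b and miR-16 were detected on no array. Other miRNAs that act on the cell cycle were counted for context. Of 16 known to restrain it, the let-7, miR-26 and miR-34 families, all were tested and none passed by limma in any comparison, with medians from -0.32 for lithium against preadipocytes to 0.58 for the interaction, beside -0.07 and 0.26 over all. Above 0 were 3 of 16 for MDI against preadipocytes (56.7% of all), 4 for lithium against preadipocytes (45.2%) and 11 for MDI against lithium (63.7%). For lithium plus MDI, 13 of 16 were above 0 against lithium (71.3% of all), 14 against MDI (72.6%) and 7 against preadipocytes (67.5%). The interaction was above 0 in 15 of 16 (65.6% of all). Of 13 known to promote it, from the miR-17 family clusters, miR-21, miR-221 and miR-222, 10 were tested and none passed by limma. Their differences were above 0 in 10 of 10 for MDI against lithium (63.7% of all), with a median of 0.82 beside 0.21 over all. For MDI against preadipocytes 9 of 10 were above 0 (56.7% of all), at 0.75 beside 0.10. For lithium plus MDI against lithium it was 10 of 10 (0.69 beside 0.39, with 71.3% of all above 0). Against preadipocytes it was 10 of 10 too (0.63 beside 0.30, with 67.5%). For lithium plus MDI against MDI it was 4 of 10 (-0.10 beside 0.18, with 72.6%). The interaction was above 0 in 4 of 10 (-0.17 beside 0.26, with 65.6%). Lithium against preadipocytes was above 0 in 6 of 10 (0.11 beside -0.07, with 45.2%).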

How the data were processed

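Intensities came from the deposited Agilent scanner files, background-subtracted per the file headers and with no scaling between arrays (Feature Extraction 10.5.1.1; 9.5.3 in the submitters' processing notes, a difference not settled here). Each array was made from 0.5 ug of Cy3-labelled total RNA, per the labels' protocols. Outlier spots (67 of the members' 1200) were left out, and the other spots of a probe averaged. After the percentile scaling, values were floored at -4.97 in log2, and no spot was saturated. No value of a member's brighter probe lay at the floor, whereas the dimmer probes of miR-195 and miR-497 lay there on 6 and 10 arrays. The brightest probe stood for a miRNA. A miRNA was tested if some group detected it on all 3 arrays. These 157 were fitted over 12 arrays as 4 group means (limma 3.58.1, R 4.3.3, 8 residual degrees of freedom) and adjusted by Benjamini-Hochberg over 157. Figures used matplotlib 3.10.9. The authors' deposited value table (log2, by r of at least 0.991 with scanner totals; its steps are unknown) served as an alternative. The number of arrays limits the precision. Named were the 5 members, the listed relatives and each member's 3 nearest miRNAs by Pearson r; members, lists and rules were chosen with earlier results of these data known. The code was tested on simulated data. Alternatives covered scaling, background, probes, filters, slide and arrays.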

Additional observations from a re-analysis of the deposited data

How the results depend on the processing

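Under 30 alternative settings, the members' log2 differences gave 995 values. Of these, 882 kept sign and side of the threshold, 96 changed sign while not past it, and 17 came to pass it with their sign kept. No member had passed as reported, so none could lose that. Many values could not change, as with an array left out of a group not compared. Scaled on all mouse probes instead, 1 member passed for MDI against preadipocytes, 1 (miR-15b, -1.10) for lithium against preadipocytes and 1 (miR-497, -1.16) for lithium plus MDI against preadipocytes. The median of all tested miRNAs moved there to -0.64, -0.90 and -0.65, and 30.6%, 49.7% and 28.0% of them passed. With no scaling, 1 passed for MDI against preadipocytes, 1 (miR-15b, -0.89) for lithium against preadipocytes and 1 (miR-15b, 1.17) for the interaction, where the medians were -0.70, -0.69 and 1.04 and 39.5%, 47.1% and 38.9% of all passed. With preadipocytes 3, lithium 1 and lithium plus MDI 3 left out, 2 members passed for lithium against preadipocytes. For lithium plus MDI, 1 passed against lithium and 2 against preadipocytes. For MDI against lithium 2 passed, and for the interaction 1. In that order, 52.9%, 56.1%, 24.2%, 42.0% and 43.9% of all passed. Leaving out 1 array at a time gave 0 to 1 for lithium plus MDI against lithium and 0 to 1 for lithium plus MDI against preadipocytes, and 0 elsewhere. The cause was not tested. Slide 1 alone, the dimmer probe and all alternatives for the within-array pairs were chosen after seeing the data.

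Over all tested miRNAs the count past the threshold ranged from 0 to 62 for MDI against preadipocytes (5 as reported), 0 to 83 for lithium against preadipocytes (10), 0 to 88 for lithium plus MDI against lithium (0), 0 to 44 for lithium plus MDI against preadipocytes (2), 0 to 66 for MDI against lithium (0) and 0 to 69 for the interaction (0), and stayed at 0 for lithium plus MDI against MDI. The order of a member's 4 group means was the same in 25 of 45 alternative values. Dropping the floor or the detection filter could not change that order, so those values agree by construction. With a replicate block no member passed: miR-15b was at 0.84 for lithium plus MDI against lithium (limma adjusted p = 0.0787), and the count over all was 16 in place of 0. The correlations of same-numbered deviations from group means ran from -0.482 to 0.473. Deviations within a group of 3 sum to 0, and differently numbered samples were not compared. Whether replicate numbers paired the samples therefore cannot be told from these correlations. With slide as a random block (correlation 0.104) no member passed. The dimmer probes of miR-195 and miR-497 were detected on 5 and 4 of 12 arrays.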
